A study of Mus musculus with 12 samples.

Results

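The genes of the mesenchymal state and the transcription factors of the epithelial to mesenchymal transition (EMT) were followed in partially reprogrammed mouse cells. The set was chosen by symbol and holds 10 of the 20325 genes in the deposited tables. Cdh2, Vim, Fn1 and Thy1 encode proteins of mesenchymal cells, and Snai1, Snai2, Zeb1, Zeb2, Twist1 and Twist2 encode the EMT factors. Of these, 9 were tested among 13400 genes that had at least 10 counts in at least 3 libraries, and Twist2 was not.

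The cells were pre-iPSCs, which are stalled intermediates with the morphology of embryonic stem cells (ESCs). By the study's methods, such lines came from picked colonies of Nanog-GFP reporter mouse embryonic fibroblasts that carried pMX retroviruses for Oct4, Sox2, c-Myc and Klf4. The methods also describe fibroblasts and astrocytes used to derive pre-iPSCs as heterozygous for R26 rtTA. Those cells held the factors in a single cassette, as 1 OKSM and 1 OSKM allele. Which of these the sequenced line carried is not stated there. All 4 groups were treated for 48 h in ESC medium with serum and without feeders, although the line was normally grown on irradiated feeders. DMSO libraries are the vehicle control. AA libraries received ascorbic acid at 50 µg per ml. The 2i libraries received a MEK inhibitor at 1 µM and a GSK inhibitor at 3 µM, and AA+2i libraries received all of these agents. Each group had 3 libraries, labelled A, B and C.

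In EMT, cells give up E-cadherin junctions and gain N-cadherin, vimentin filaments and a fibronectin matrix. The SNAI and ZEB zinc finger proteins repress epithelial genes through E-box sequences, and the TWIST proteins are basic helix-loop-helix factors that act with them. Fibroblasts pass through the reverse change, the mesenchymal to epithelial transition, early in reprogramming.

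Library totals ran from 16173322 to 54392719 expected counts, and DMSO B and AA B were the deepest. Markers were checked against the label. Epcam, an epithelial surface protein, stood at 60.5 to 227.9 TPM and Cdh1, which encodes E-cadherin, at 31.8 to 142.6 TPM. TPM is a level scaled for transcript length, so that genes of a library can be compared. Other epithelial genes varied. In DMSO, Krt19 was at 23.8 to 141.6 TPM, whereas Grhl2 was at 0 to 0.05 TPM and Rab25 at 0 to 0.35 TPM. Pluripotency markers, a list of 14, varied as well in DMSO. Esrrb (0.15 to 0.31 TPM), Utf1 (0 to 0.2 TPM), Dppa2 (0.37 to 0.94 TPM) and Dppa4 (0.08 to 0.56 TPM) were low. Tdgf1 (91.6 to 165.4 TPM), Sall4 (33.9 to 45.3 TPM) and Nanog (2.93 to 7.14 TPM) were higher. Over 7 neural markers the sum was 56.7 to 98.2 TPM, mostly from Nes and Sox1. Over 12 fibroblast markers the summed level was 4.19 to 10.69 TPM in DMSO, 4.31 to 5.03 in AA, 4.72 to 6.02 in 2i and 5.88 to 6.70 in AA+2i, with Lum and Fap under 0.1 TPM in every group and Prrx1 (0.84 to 3.96 TPM) and Col1a2 (0.54 to 2.64 TPM) detected in every library. Col3a1 of that list rose with AA+2i, and the part of fibroblasts in the members' values was not tested. DMSO B stood apart. It had the highest sum of fibroblast markers, the highest sum over 12 endoderm markers (156.6 TPM against 56.6 and 66.1 in the other DMSO libraries) and the highest Pou5f1 level (9673 TPM against 1865 and 3795). Most of that endoderm sum came from Lamb1 (102.0 TPM), Col4a1 (26.6) and Col4a2 (23.6). Gata4, Gata6, Sox7, Sox17, Foxa2, Amn and Afp were each at or below 0.28 TPM in DMSO B. In the Pou5f1 level exogenous copies and the endogenous gene cannot be told apart. The study reports that the exogenous factors were repressed in every condition by this time point. In bulk RNA, fewer cells of a type and less RNA per cell cannot be told apart either.

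Zeb2 rose with 2i, Cdh2 fell with AA+2i, and no member was called with AA alone. Calls are genes with a Benjamini-Hochberg adjusted p under 0.05 by the quasi-likelihood test of edgeR. With AA, 0 of 9 members were called against 1.34% of all tested genes, while 5 members had an unadjusted p under 0.05 and DESeq2 called 2 (Cdh2 and Zeb2). With 2i, 1 of 9 was called against 4.42% of all genes. With AA+2i, 1 of 9 was called against 8.34%. Over the 9 members the median log2 fold change stood at -0.47, -0.08 and -0.26 for AA, 2i and AA+2i in that order, beside -0.01, -0.02 and -0.02 over all tested genes. These comparisons share the DMSO libraries.

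**Figure D1:**
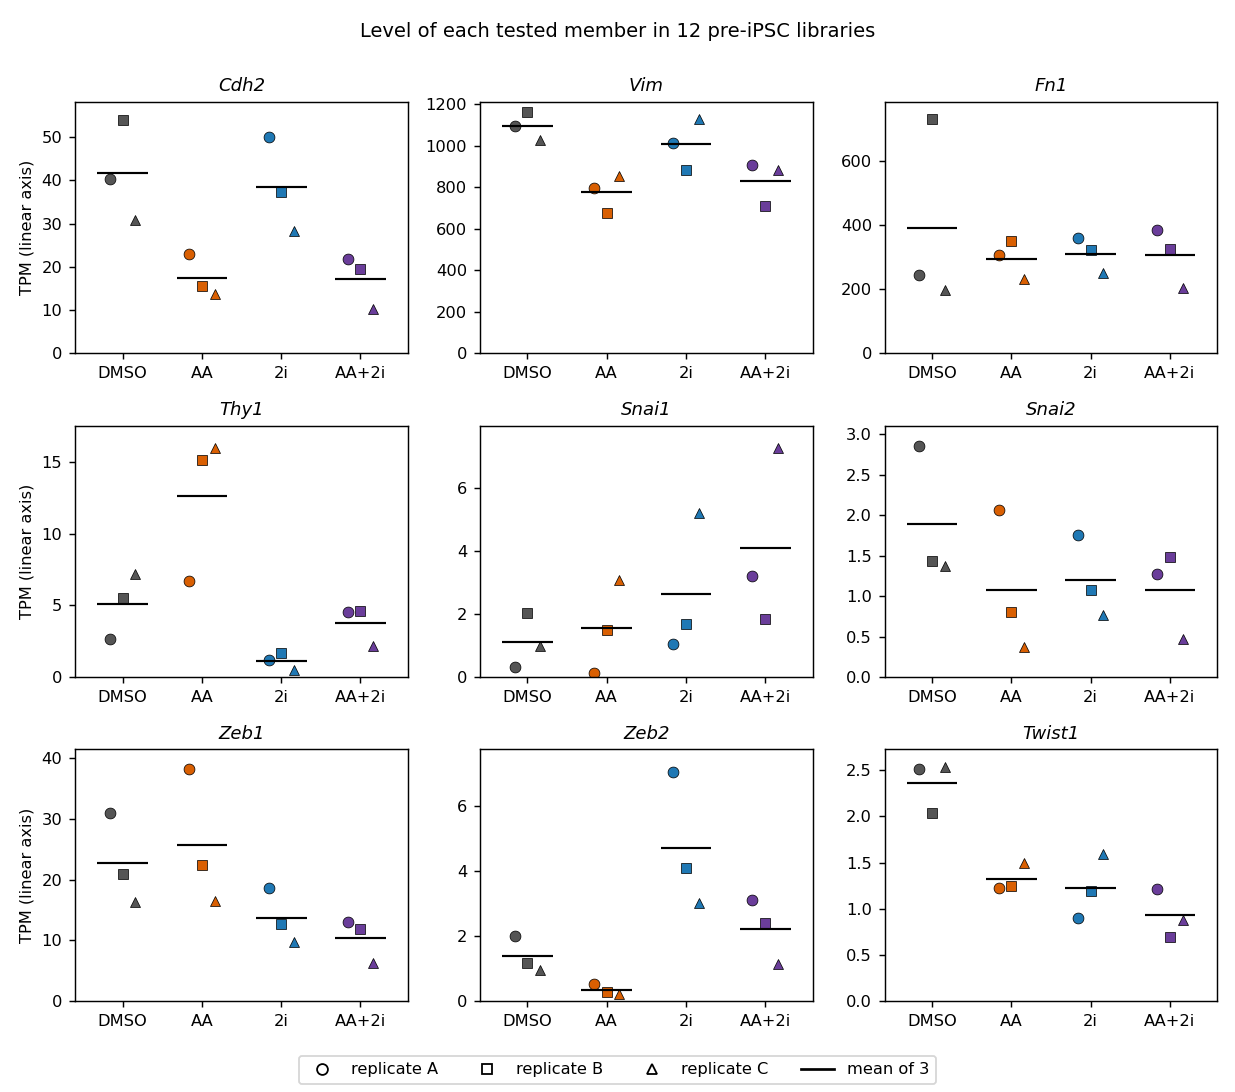
TPM (vertical, linear from 0) of the 9 tested members in the 12 libraries, by treatment (horizontal), with symbols for replicates A, B and C and a line at the mean of 3. Zeb2 is lowest in AA and highest in 2i, Cdh2 is low in the AA and AA+2i groups, and for Fn1 the DMSO B library lies far above the other 11.

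**Figure D2:**
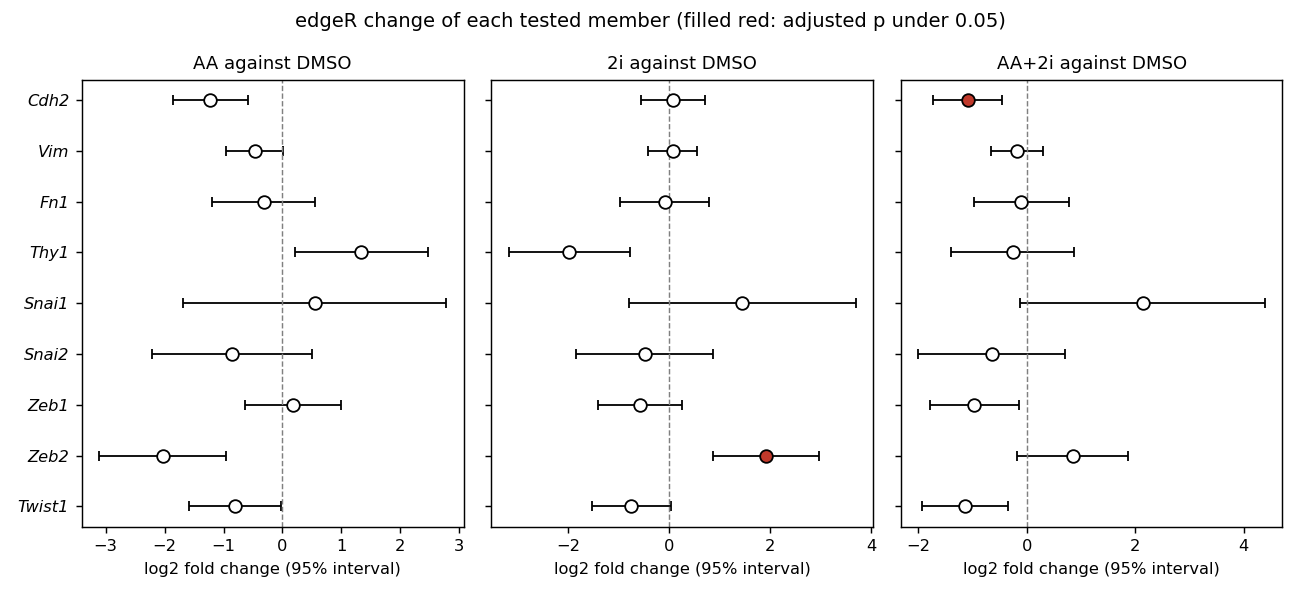
Log2 fold change from DMSO (horizontal) of the 9 tested members with 95% intervals from edgeR, for AA, 2i and AA+2i. Filled red points passed an adjusted p of 0.05, namely Zeb2 with 2i and Cdh2 with AA+2i.

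Cdh2 encodes N-cadherin, the cadherin that mesenchymal cells use in place of E-cadherin (chr18:16747386-16967755, minus strand, mm9). Its level was 40.3, 53.9 and 30.9 TPM in the DMSO libraries A, B and C and 50.2, 37.3 and 28.3 TPM in the 2i libraries. It was 22.9, 15.7 and 13.7 TPM with AA and 21.8, 19.6 and 10.2 TPM with AA+2i. All 6 libraries that received ascorbic acid lay below all 6 that did not. Cdh2 fell with AA+2i, with a log2 fold change of -1.08 (SE 0.28, 95% interval -1.72 to -0.45, edgeR adjusted p = 0.0354), a fold of 2.12. The value with AA alone was as large but missed the threshold (log2 fold change -1.22, SE 0.28, adjusted p = 0.0645), which it passed with a correction for the GC content of transcripts (adjusted p = 0.00686) and in DESeq2 (adjusted p = 0.00278), and with 2i alone it was 0.08 (interval -0.55 to 0.71). Adding AA to 2i gave -1.16 (SE 0.28, adjusted p = 0.0885), and 0 members were called in that comparison against 0.91% of all genes, while 3 members had an unadjusted p under 0.05 and DESeq2 called 2. The AA+2i call was lost when any of DMSO A, DMSO B, AA B, 2i B or an AA+2i library was left out, with log2 fold changes of -1.25 to -0.863 and adjusted p of 0.0251 to 0.134 over the 12 fits, in each of the 3 fits without a letter (adjusted p 0.0518 to 0.34) and in a fit of only the groups compared (adjusted p = 0.0884).

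The balance of the cadherins was read in each library as the ratio of Cdh2 to Cdh1, a ratio chosen after the levels had been seen. It was 1.27, 1.08 and 0.648 in DMSO and 0.885, 0.805 and 0.494 in 2i. In AA it was 0.245, 0.189 and 0.136, and in AA+2i it was 0.153, 0.157 and 0.102. The N-cadherin level was thus 0.494 to 1.27 of the E-cadherin level in libraries without ascorbic acid and 0.102 to 0.245 of it in libraries with it. Cdh1 itself rose with AA (log2 fold change 1.13, SE 0.20, adjusted p = 0.018) and with AA+2i (1.71, SE 0.20, adjusted p = 0.000683), while its value with 2i was 0.50 (SE 0.20, adjusted p = 0.22). The ratios of DMSO and AA, and those of 2i and AA+2i, did not overlap, and the two-sided exact permutation p was 0.1 in each case, the smallest that 3 libraries against 3 allow. Between DMSO and 2i the exact permutation p was 0.4, and between AA and AA+2i it was 0.3.

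**Figure D3:**
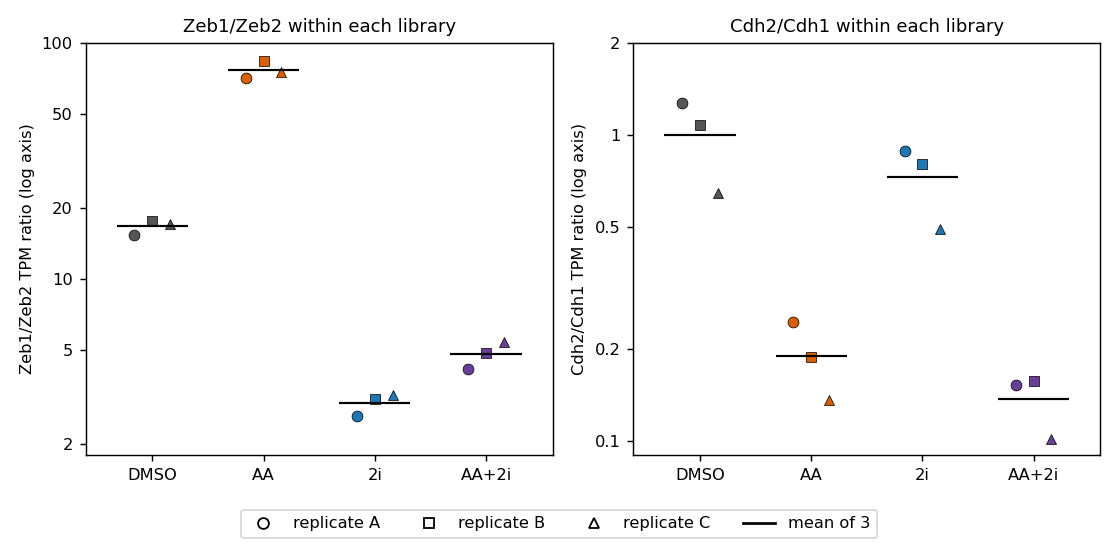
Ratio of TPM within each library (vertical, log axes), Zeb1 over Zeb2 in the left panel and Cdh2 over Cdh1 in the right, by treatment, with symbols for replicates and a line at the mean of 3. The Zeb1 to Zeb2 ratio is 70.8 to 83.3 in AA and 2.64 to 3.24 in 2i, and the 4 groups do not overlap.

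Vim encodes vimentin, the intermediate filament of mesenchymal cells (chr2:13495554-13504453, plus strand, mm9). It was by far the most abundant member per length, at rank 108 to 197 among all genes of a library. Its level was 1096, 1163 and 1026 TPM in DMSO, 798, 674 and 854 TPM in AA, 1013, 881 and 1126 TPM in 2i, and 906, 707 and 881 TPM in AA+2i. The AA and AA+2i libraries all lay below the DMSO libraries on this scale, and the 2i libraries overlapped them. The log2 fold change was -0.47 with AA (interval -0.95 to 0.01, edgeR adjusted p = 0.507), 0.07 with 2i (interval -0.41 to 0.55) and -0.18 with AA+2i (interval -0.66 to 0.30). Together with Fn1, Vim made up 93.9% to 97.46% of the summed TPM of the members in each library. Vim is GC-rich (57.3% of its transcript), and with a correction for GC content the value with AA+2i was -1.08 (adjusted p = 0.106).

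Fn1 encodes the matrix protein fibronectin (chr1:71632094-71699774, minus strand, mm9). Its level was 245.9, 732.3 and 197.2 TPM in DMSO, and 204.9 to 385.2 TPM over the 9 treated libraries. Only DMSO B exceeded the rest. With it, the log2 fold changes for AA, 2i and AA+2i were -0.31, -0.08 and -0.10. Without it they were 0.35 (SE 0.25, edgeR adjusted p = 0.689), 0.59 (SE 0.25, adjusted p = 0.296) and 0.56 (SE 0.25, adjusted p = 0.183), so that the sign of each estimate rested on that library. DMSO B was also the library with the highest sums of fibroblast and endoderm markers, the latter mostly from Lamb1, Col4a1 and Col4a2. The part of such cells in its Fn1 level was not tested.

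Thy1, a surface glycoprotein of fibroblasts that is lost as they reprogram (chr9:43851467-43856662, plus strand, mm9), had values of opposite sign with AA and with 2i, although neither was called. Its level was 2.64, 5.55 and 7.21 TPM in DMSO, 6.69, 15.1 and 15.99 TPM in AA, 1.23, 1.68 and 0.54 TPM in 2i and 4.58, 4.65 and 2.17 TPM in AA+2i. Every 2i library lay below every library of the other groups. The log2 fold change was -1.97 with 2i (SE 0.52, interval -3.17 to -0.77, edgeR adjusted p = 0.0601), 1.34 with AA (SE 0.49, interval 0.21 to 2.47, adjusted p = 0.335) and -0.26 with AA+2i (interval -1.39 to 0.87). The 2i value passed when DMSO A or AA A was left out (adjusted p down to 0.0353), with the GC correction (-2.18, adjusted p = 0.00834) and in DESeq2 (adjusted p = 0.00468). Between AA+2i and 2i the levels did not overlap (log2 fold change 1.71, SE 0.52, adjusted p = 0.188).

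The SNAI factors were scarce. Snai1 (chr2:167363695-167368314, plus strand, mm9), the repressor that opens many EMT programmes, had 2 to 152 counts per library. Its level was 0.31, 2.04 and 1.00 TPM in DMSO, 0.13, 1.49 and 3.09 TPM in AA, 1.04, 1.69 and 5.18 TPM in 2i and 3.20, 1.84 and 7.25 TPM in AA+2i. The group means were in the order DMSO, AA, 2i and AA+2i, yet the libraries of all groups overlapped, and the log2 fold change of 2.14 with AA+2i had an SE of 0.98 (interval -0.12 to 4.39, edgeR adjusted p = 0.205). Snai1 has the highest GC content of the members (59.8%). The deviation of genes of that GC content, fitted over all genes, ran from -1.65 log2 units in DMSO A to 1.08 in AA+2i C, which were among the lowest and highest Snai1 libraries, and with the correction the AA+2i value was 1.28 (adjusted p = 0.0904).

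Snai2 (chr16:14705945-14709488, plus strand, mm9), which encodes the relative of Snai1 known as Slug, had 9 to 63 counts per library. Its level was 2.86, 1.43 and 1.38 TPM in DMSO, 2.06, 0.80 and 0.37 TPM in AA, 1.76, 1.08 and 0.77 TPM in 2i and 1.28, 1.49 and 0.47 TPM in AA+2i. The groups overlapped throughout. The log2 fold changes of -0.86, -0.48 and -0.65 with AA, 2i and AA+2i had SEs of 0.59 each, and none was called.

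The ZEB pair gave the clearest pattern. Zeb1 and Zeb2 encode zinc finger and homeodomain repressors of E-cadherin. Zeb1 (chr18:5591858-5775465, plus strand, mm9) was the most abundant EMT factor in all 12 libraries except AA+2i C, where Snai1 was higher, and it made up 39.1% to 90.6% of the summed TPM of the 6 factors. Its level was 30.9, 21.0 and 16.3 TPM in DMSO, 38.2, 22.5 and 16.5 TPM in AA, 18.6, 12.7 and 9.77 TPM in 2i and 13.1, 11.8 and 6.25 TPM in AA+2i. All AA+2i libraries lay below all DMSO and all AA libraries, while AA and DMSO overlapped. The log2 fold change was 0.18 with AA (interval -0.64 to 1.00), -0.57 with 2i (SE 0.36, edgeR adjusted p = 0.475) and -0.96 with AA+2i (SE 0.36, interval -1.79 to -0.14, adjusted p = 0.129). The last value was -0.68 with the GC correction (adjusted p = 0.0321), where it passed. Taken letter by letter, the log2 ratios of Zeb1 TPM in 2i to DMSO were -0.73, -0.73 and -0.74. The main test did not use the letters, which are not stated to pair the libraries.

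Zeb2 (chr2:44839154-44972915, minus strand, mm9) was scarcer, with 25 to 679 counts per library. Its level was 2.01, 1.19 and 0.95 TPM in DMSO, 0.54, 0.27 and 0.22 TPM in AA, 7.06, 4.09 and 3.02 TPM in 2i and 3.12, 2.42 and 1.15 TPM in AA+2i. The AA libraries lay below all others and the 2i libraries above all DMSO libraries, whereas AA+2i overlapped DMSO and 2i. Zeb2 rose with 2i, with a log2 fold change of 1.92 (SE 0.45, interval 0.87 to 2.97, edgeR adjusted p = 0.0387), a fold of 3.79. With AA the value was of like size and opposite sign but missed the threshold (-2.03, SE 0.47, interval -3.11 to -0.95, adjusted p = 0.0701), and with AA+2i it was 0.85 (SE 0.44, adjusted p = 0.252). With the GC correction both passed, at -1.87 (adjusted p = 0.0025) and 1.25 (adjusted p = 0.00506). Adding 2i to AA raised Zeb2 7.35-fold (log2 fold change 2.88, SE 0.48, adjusted p = 0.00528), the only call among the members in that comparison, where 6.1% of all genes were called. That call held in each of the 12 fits that left out a library (adjusted p 0.00357 to 0.0342), and in 1 of the 3 fits that left out a letter (adjusted p 0.00653 to 0.26). The 2i call was lost without any of DMSO B, DMSO C, AA B, AA+2i A, AA+2i B or a 2i library (adjusted p 0.0242 to 0.137 over the 12 fits), in 2 of the 3 fits without a letter (adjusted p up to 0.592), in a fit of only the groups compared (adjusted p = 0.0797) and in limma on log2(TPM + 0.1) (adjusted p = 0.0678).

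The ratio of Zeb1 to Zeb2 within a library, also chosen after the levels had been seen, varied far less among replicates than either gene. It was 15.4, 17.7 and 17.1 in DMSO, 70.8, 83.3 and 74.8 in AA, 2.64, 3.10 and 3.24 in 2i, and 4.18, 4.88 and 5.43 in AA+2i. The 4 groups were separate, in the order AA, DMSO, AA+2i and 2i, and each of the 6 pairs of groups reached the smallest two-sided exact permutation p that 3 libraries against 3 allow, 0.1. The mean ratio was 76.3 ± 6.38 (SD, n = 3) in AA and 2.99 ± 0.314 in 2i. The transcripts are of similar GC content (47.2% and 45.0%), and the GC-dependent deviation moved them together, from -0.314 to 0.445 log2 units for Zeb1 and -0.425 to 0.619 for Zeb2.

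The interaction asks whether the log2 change under AA+2i departs from the sum of those under each agent alone. For Zeb2 it was 0.96 (SE 0.63, interval -0.50 to 2.41, edgeR adjusted p = 1.0). No member was called for it and none had an unadjusted p under 0.05, beside 0.0149% of all genes called, and DESeq2 called 0 members as well.

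Twist1 (chr12:34642536-34644682, plus strand, mm9), a basic helix-loop-helix factor of mesoderm and neural crest, had 14 to 73 counts per library. Its level was 2.51, 2.04 and 2.54 TPM in DMSO, 1.23, 1.25 and 1.5 TPM in AA, 0.90, 1.19 and 1.59 TPM in 2i and 1.22, 0.69 and 0.88 TPM in AA+2i. Every treated library lay below every DMSO library. The log2 fold change was -0.80 with AA (SE 0.34, edgeR adjusted p = 0.447), -0.75 with 2i (SE 0.34, adjusted p = 0.311) and -1.14 with AA+2i (SE 0.35, interval -1.93 to -0.34, adjusted p = 0.0694). DESeq2 gave an adjusted p of 0.0373 for the AA+2i value. Twist1 is GC-rich (59.7%), and with the GC correction that value was -2.27 (adjusted p = 0.0275).

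Twist2 (chr1:93698038-93744605, plus strand, mm9), its close relative, was all but undetected, with 1 count in DMSO B, 1 in AA B and 0 in the other 10 libraries. In 2i and in AA+2i, 0 counts in the group allow up to 0.049 and 0.0463 CPM (counts scaled to library size), taking 3 counts as the limit, which covers counting error only.

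Counted by levels rather than by the test, 4 of the 9 tested members had TPM ranges in AA wholly below DMSO (Cdh2, Vim, Zeb2 and Twist1) and none wholly above, against 9.49% of all tested genes that did not overlap in either direction. With 2i, Zeb2 was wholly above, and Thy1 and Twist1 wholly below, which makes 3 of 9 against 19.9% of all genes in either direction. With AA+2i, 4 were wholly below (Cdh2, Vim, Zeb1 and Twist1), against 32.1% of all genes in either direction. Between AA+2i and 2i, Thy1 was wholly higher and Cdh2 wholly lower, 2 of 9 against 16.1% of all genes, and between AA+2i and AA, Zeb2 was wholly higher and Thy1, Zeb1 and Twist1 wholly lower, 4 of 9 against 24.5%. On the TPM scale the median of all genes was itself shifted, by -0.126 log2 units with 2i and -0.148 with AA+2i, and Vim with 2i was 0.07 in edgeR but negative on that scale.

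Wider lists of genes of the same programme were counted beside the members. Of 32 further mesenchymal genes, 28 were tested. The calls were 1 lower with AA, 2 lower with 2i, and 4 lower and 1 higher with AA+2i, beside 1.34%, 4.42% and 8.34% of all genes called in either direction. With AA, Tnc fell (log2 fold change -2.26, SE 0.40, edgeR adjusted p = 0.0189) and none rose. With 2i, S100a4, a calcium-binding protein of fibroblasts, and Axl, a receptor tyrosine kinase, fell (-3.04 and -1.62). With AA+2i, S100a4, Axl, Cd44 and Loxl2 fell (-3.54, -2.21, -1.59 and -0.97), and the collagen gene Col3a1, also a fibroblast marker, rose (2.25) while staying at or below 0.64 TPM. S100a4 was at 341.9, 339.4 and 506.9 TPM in DMSO and at 25.2, 25.5 and 36.8 TPM in AA+2i. Over the list the medians for AA, 2i and AA+2i were -0.46, 0.20 and -0.23.

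Of 20 other transcription factors linked to EMT, 13 were tested. With AA 1 was called lower, and with 2i and with AA+2i 2 were lower and 1 higher in each case. The shares of all genes called were 1.34%, 4.42% and 8.34%. Ets1, like Zeb2, was lowest in AA and highest in 2i, with 0.35 to 0.52 TPM in AA, 0.77 to 0.86 in AA+2i, 0.92 to 1.89 in DMSO and 2.76 to 4.11 in 2i. It fell with AA (log2 fold change -1.66, SE 0.35, edgeR adjusted p = 0.0444) and rose with 2i (1.48, SE 0.34, adjusted p = 0.0318). Its AA call was lost in 5 of 10 alternatives, among them the GC correction, limma on log2(TPM + 1) and both other count filters. Its 2i call was lost in the fit of only the groups compared. That 2i call was also lost in 10 of 15 edgeR fits that left out a library or a letter (adjusted p 0.021 to 0.404). Snai3, the third SNAI gene, fell with 2i, from 0.47, 1.89 and 1.38 TPM in DMSO to 1 count in the 3 libraries of 2i together. Runx2, a regulator of bone-forming cells, fell with 2i (-1.95) and with AA+2i (-3.12), Foxc1 fell with AA+2i (-2.08) and Klf8 rose (1.27). The corresponding medians were -0.54, -0.31 and -0.76.

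Of 28 epithelial genes known as targets of SNAI and ZEB repression, 27 were tested. With AA, 3 rose (Cdh1, the epithelial transcription factor Grhl2 and the vesicle GTPase Rab25), beside 1.34% of all genes called, with a list median of 0.64. With 2i, the desmosome gene Dsp rose, the only call in the list, beside 4.42% of all genes called, and the median was -0.16. With AA+2i, 6 rose, namely Rab25 (log2 fold change 4.45), the tight junction genes Cldn4 (4.18) and Cldn7 (2.52), Cdh1 (1.71), Dsp (1.66) and Epcam (1.10), and none fell, beside 8.34% of all genes called, with a median of 0.94. With the GC correction 6 genes of the list were called with AA and 12 with AA+2i, beside 3.91% and 19.1% of all genes. With AA+2i, Rab25 stayed low, at 3.02 to 4.49 TPM, whereas Cldn4 reached 72.2 to 172.4 TPM from 1.36 to 11.2 in DMSO. Grhl2 was scarce throughout, at 0.21 to 0.40 TPM with AA and 0.05 to 0.06 TPM with AA+2i. It was called lower in AA+2i than in AA (log2 fold change -2.29, SE 0.53, edgeR adjusted p = 0.0269). Of 24 genes of the pathways that induce EMT, 23 were tested. The calls were 1 lower with AA, 1 lower and 1 higher with 2i, and 4 lower and 1 higher with AA+2i, beside 1.34%, 4.42% and 8.34% of all genes. The TGF-beta ligand gene Tgfb2 fell with AA (-2.22) and AA+2i (-2.92), its receptor gene Tgfbr2 fell with 2i (-1.23) and AA+2i (-1.42), Egfr (-1.82) and Smad3 (-0.90) fell with AA+2i, and Axin2, a Wnt target, rose with 2i (5.83) and AA+2i (6.10).

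Calls in these lists differed in how far they rested on single libraries. Over 15 fits that each left out a library or a letter, the AA calls of Tnc, Cdh1, Grhl2, Rab25 and Tgfb2 were lost in 7 each. All of these AA calls were also lost in the fit of only the groups compared, and that of Tnc in limma on log2(TPM + 1). In the 15 fits, the AA call of Ets1 and the AA+2i call of Cldn7 were lost in 13 each. With 2i, the call of Dsp was lost in 11 and that of Ets1 in 10. The AA+2i calls of S100a4, Axl, Runx2, Cdh1, Dsp, Tgfb2, Tgfbr2 and Axin2 were lost in 1 each, whereas that of Cd44 was lost in 10, that of Epcam in 8, those of Loxl2, Smad3 and Klf8 in 7 each and those of Egfr and Col3a1 in 6 each. The Cdh1 call with AA was lost without DMSO A, DMSO B, AA B, AA C or any letter (adjusted p 0.0257 to 0.629 over the 15 edgeR fits).

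**Figure D4:**
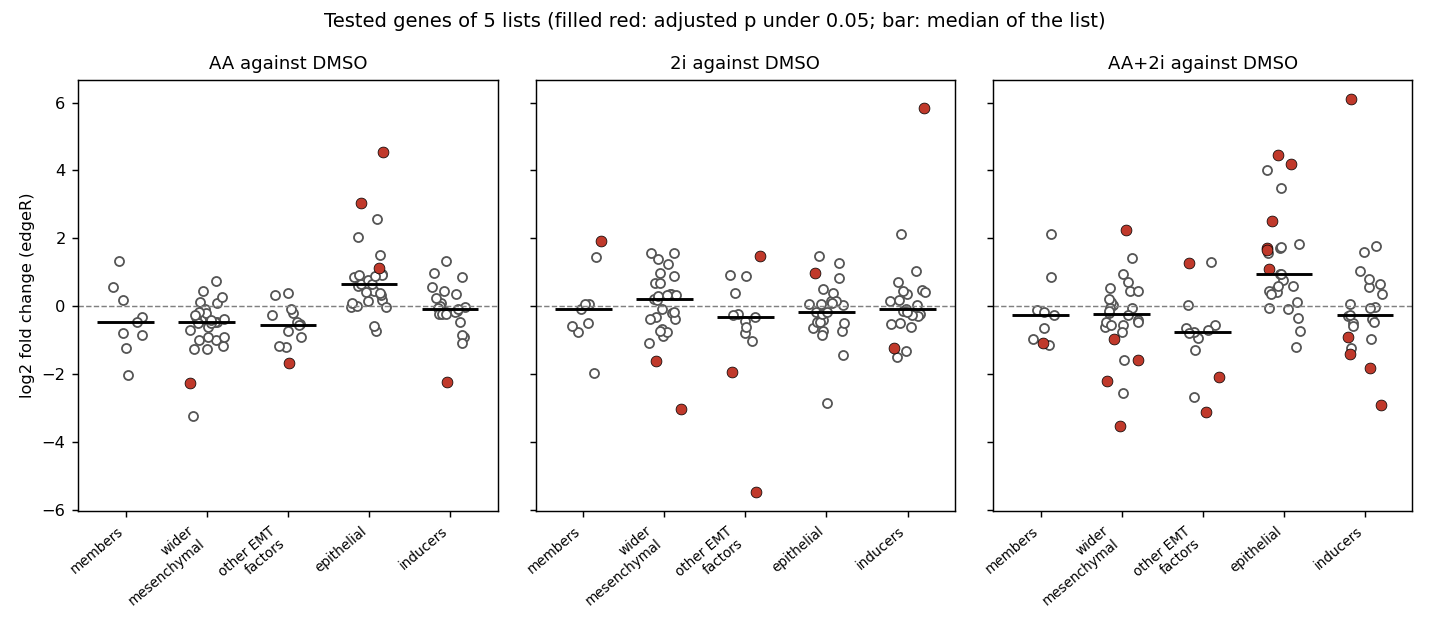
Log2 fold change from DMSO (vertical, edgeR) of every tested gene in 5 lists, for AA, 2i and AA+2i, with filled red points for an adjusted p under 0.05 and a bar at each list's median. The epithelial list has medians of 0.64, -0.16 and 0.94, and the members have -0.47, -0.08 and -0.26.

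SNAI and ZEB proteins are known to bind the E-box CACCTG. Promoter windows of RefSeq (GRCm38.p6, 250 bases before to 50 after a start) were searched for it on both strands, on which the reverse reads CAGGTG. Of 27025 genes with a window, 22.6% held it. Windows were given for 5 members (Vim, Snai1, Zeb2, Twist1 and Twist2), and Snai1 was the one that held it. A window was given for 16 of the 28 epithelial genes and 13 of these held it, but the list was chosen as targets of factors that bind it, so nothing is read from that share. The Snai1 window, on the plus strand, and the windows of 3 epithelial genes that rose with AA+2i follow, with the matches in capitals, because they show the letters that the factors of the set recognise. A match is not evidence of binding here.
Snai1, chr2:167537945-167538244, plus strand: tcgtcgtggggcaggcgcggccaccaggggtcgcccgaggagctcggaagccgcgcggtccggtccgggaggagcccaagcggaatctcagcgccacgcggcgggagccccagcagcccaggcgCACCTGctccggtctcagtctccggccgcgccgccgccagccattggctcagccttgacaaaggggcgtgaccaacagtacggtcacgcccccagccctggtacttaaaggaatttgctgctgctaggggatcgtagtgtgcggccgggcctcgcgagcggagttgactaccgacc
Epcam, chr17:87635729-87636028, plus strand: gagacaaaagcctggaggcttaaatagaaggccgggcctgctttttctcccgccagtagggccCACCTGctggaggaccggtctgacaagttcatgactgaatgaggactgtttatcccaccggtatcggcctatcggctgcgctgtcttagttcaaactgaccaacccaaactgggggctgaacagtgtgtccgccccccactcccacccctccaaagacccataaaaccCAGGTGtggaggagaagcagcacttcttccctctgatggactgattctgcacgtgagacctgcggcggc
Rab25, chr3:88548230-88548529, minus strand: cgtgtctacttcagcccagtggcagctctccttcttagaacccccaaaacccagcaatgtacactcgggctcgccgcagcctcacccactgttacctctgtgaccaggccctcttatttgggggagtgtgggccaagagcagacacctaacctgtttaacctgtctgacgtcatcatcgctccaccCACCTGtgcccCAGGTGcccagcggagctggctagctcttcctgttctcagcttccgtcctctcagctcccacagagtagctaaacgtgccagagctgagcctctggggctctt
Cldn4, chr5:134946885-134947184, minus strand: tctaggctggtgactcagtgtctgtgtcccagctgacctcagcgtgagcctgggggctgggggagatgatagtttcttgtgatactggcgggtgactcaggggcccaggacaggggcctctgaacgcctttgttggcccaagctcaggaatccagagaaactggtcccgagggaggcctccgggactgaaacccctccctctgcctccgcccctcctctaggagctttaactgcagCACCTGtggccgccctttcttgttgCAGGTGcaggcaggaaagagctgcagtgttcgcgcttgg
The match in Snai1 began 126 bases before the start. In Epcam matches began 187 and 19 bases before it, in Rab25 64 and 53 bases before it, and in Cldn4 14 bases before and 11 after it.

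The genes whose levels over the 12 libraries were most like those of the 2 called members were found by Pearson's r of log2(TPM + 1) among 11748 genes. For Cdh2 these were Cadm1 (r = 0.974), which encodes a cell adhesion molecule, Sema6d (0.971) and Tmem35 (0.968). Cadm1 had means of 6.72 TPM in DMSO, 1.73 in AA, 5.61 in 2i and 1.34 in AA+2i. For Zeb2 they were Tmem56 (0.981), Mtap1b (0.980), which encodes a neuronal microtubule-associated protein, and Sox6 (0.978). Sox6, a transcription factor gene, had means of 0.89 TPM in DMSO, 0.46 in AA, 3.01 in 2i and 1.83 in AA+2i, the same order as Zeb2. These coefficients are descriptions over libraries that differ in depth and in base composition.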

How the data were processed

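RNA from pre-iPSCs, 3 libraries in each of 4 groups, had been sequenced as single-end reads. The authors trimmed and quality-filtered the reads, aligned them with Bowtie to RefSeq genes of mm9 and quantified them with RSEM 1.2.4. The expected counts deposited by the authors are estimates per gene, not normalized. The TPM and FPKM deposited by the authors are scaled for length within each library. FPKM served to recompute 1 malformed TPM cell of a gene outside the lists. Groups were taken from the labels, which give the letters A, B and C, and the study calls the replicates biological.

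The members and gene lists were chosen with earlier results of these data known. After rounding, the expected counts went into edgeR 4.0.16 (R 4.3.3) with RLE factors, a mean for each of the 4 groups, quasi-likelihood F-tests with 8 residual degrees of freedom before moderation, and Benjamini-Hochberg adjustment over the 13400 genes that reached 10 counts in 3 or more libraries. The study used EBSeq, which was not run here. The SE was taken from the F statistic (absolute log2 fold change over the root of F), so it restates the test. The 95% intervals use t with 8 degrees of freedom, those before moderation, so they do not match the moderated p exactly. For Vim with AA the interval included 0 although the unadjusted edgeR p was 0.0455. The named genes were all members, up to 4 called genes of each list with the largest change in each comparison, Cdh1 and Epcam, and the 3 genes of at least 1 mean TPM most like each member called against DMSO. Smad3 and Loxl2 were named after their values had been seen. Alternatives were TMM, DESeq2 1.42.0, limma 3.58.1 on log2(TPM + 1) and log2(TPM + 0.1), tests without a count filter or with 10 counts required of all libraries, only the groups compared, the letter as a replicate block, a loess correction for transcript GC content (98.72% of tested genes had a value), that correction with the block, and leaving out each letter or library. The fit was tested on simulated data. Depth is the sum of expected counts. The limits given for Twist2 cover counting error only, whereas the edgeR intervals include the estimated spread between replicates. Gene coordinates are those of mm9. The reads themselves were not used here.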

Additional observations from a re-analysis of the deposited data

How the results depend on the processing

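In the main analysis 0, 1 and 1 members were called with AA, 2i and AA+2i against DMSO, 0 for AA+2i against 2i, 1 for AA+2i against AA and 0 for the interaction. DESeq2 called 2, 2, 2, 2, 3 and 0. The GC correction called 2, 2, 4, 1, 3 and 0. A fit of only the groups compared called 0 with 2i and 0 with AA+2i, and limma on either TPM scale called 2 with AA+2i. With 1 library or letter left out, the counts ranged from 0 to 1 with AA, 0 to 2 with 2i, 0 to 1 with AA+2i, 0 to 0 against 2i, 0 to 2 against AA and 0 to 0 for the interaction. TMM and both other count filters gave the main counts, and no called value changed sign in any alternative. Of 4431 comparisons of single-gene values that were not called, 198 changed sign. Snai1, Snai2 and Twist1 had at most 152, 63 and 73 counts in a library, and the part of depth in their missing calls was not tested.

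Libraries with the same letter deviated from their group means with a mean correlation of 0.401 over 18 pairs, from -0.588 to 0.894. Over 36 pairs of different letters the mean was -0.196, and 11 of 12 libraries were closest to their own letter. The labels and the study do not say that the letters pair the libraries, and not every same-letter pair was above 0.1. The main test therefore ignored the letters, so that any difference between letters stayed in its SEs. With the replicate block, 2, 3, 5, 2, 2 and 0 members were called, among 4.43%, 13.3%, 31.6%, 4.52%, 14.9% and 0.0299% of all genes. With the GC correction and the replicate block, 2, 4, 6, 2, 4 and 0 were called, among 10.8%, 24.7%, 36.3%, 10.8%, 27.4% and 0.179% of all genes. Zeb1 was called under the block with 2i (adjusted p = 0.0466), with AA+2i (adjusted p = 0.00279) and for AA+2i against AA (adjusted p = 0.00176). Cdh2 and Zeb2 were called with AA under the block, the GC correction, their combination and DESeq2. Snai1 and Twist1 were called with AA+2i under the block and under its combination with the GC correction. Vim was called with AA+2i under that combination only. Snai1 was also called under the combination for AA+2i against AA. The causes were not tested.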
